A study of Mus musculus with 6 samples.

Results

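Oxidative phosphorylation is described here through the genes of the nucleus that encode its subunits, in 2 clones of MIN6-4N, a mouse insulinoma line labelled as pancreatic beta cell. The genes were chosen by symbol, whatever their values: probe sets (groups of probes that each cover about an exon) were taken where the array annotation gave exactly 1 symbol, and that symbol began with Nduf, Uqcr or Atp5, was Sdha, Sdhb, Sdhc, Sdhd or Cyc1, or was Cox followed by 4, 5, 6, 7 or 8. This gave 89 of the 20416 genes measured, on 490 probe sets. Of them, 35 encode subunits of complex I, 4 of complex II, 8 of complex III, 19 of complex IV and 15 of complex V. The symbol rule also took in 6 assembly factors (Ndufaf1, Ndufaf2, Ndufaf3, Ndufaf4, Atp5sl and Cox7a2l) and 2 genes that encode no subunit, Atp5s and Cox4nb, the latter now named Emc8 and a component of a membrane protein insertase of the endoplasmic reticulum.

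The respiratory chain sits in the inner mitochondrial membrane. Complexes I and II pass electrons from NADH and succinate to ubiquinone, complex III passes them to cytochrome c, and complex IV to oxygen; complexes I, III and IV pump protons as they do so, and complex V, the ATP synthase, uses the proton gradient to make ATP. Most subunits are encoded in the nucleus, the rest in mitochondrial DNA. In beta cells the ATP made in this way closes potassium channels and so couples glucose metabolism to insulin release.

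The 6 arrays hold 3 cultures of 1 clone stably transfected with the empty plasmid pcDNA3.1, called vector, and 3 cultures of 1 clone transfected with pcDNA3.1-mMeg3, which carries mouse Meg3, an imprinted gene whose long RNA encodes no known protein. Both clones, per the labels' protocols, were selected for 5 weeks in G418 at 750 µg/ml and then kept in low-glucose medium with 15% serum and 500 µg/ml G418, so the vector clone carries the same resistance and drug as the Meg3 clone. The labels disagree on the Meg3 clone, which array titles call Meg-3 and the extraction protocol calls Meg-5, so which picked clone it was is unsettled. The sample descriptions also speak of sorted subpopulations, while the protocols describe no sort. The comparison asks which genes differ when Meg3 is overexpressed in beta cells. Because a group is 1 clone, an effect of Meg3 and any other difference between the clones cannot be told apart, and each p-value rests on how far cultures of a clone differed. In bulk RNA, fewer cells of a type and less RNA per cell cannot be told apart either.

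Meg3, the check of the labels, read 5.63, 6.00 and 5.88 (log2) in the vector cultures and 7.24, 7.91 and 7.53 in the Meg3 cultures (1.72 higher on the log2 scale, SE 0.19; adjusted p = 0.00756 by limma, and 0.0666 without Meg3 replicate 3). All 12 beta cell markers, Ins2, Iapp and Pdx1 among them, lay above the median of all genes (6.66), and 0 were called by limma. This median is only a rough guide to level, since probes of different genes differ in brightness. The alpha cell genes Gcg and Ttr lay above it as well, as did Spp1, Cd68, Col1a1, Irx2 and Ppy, whereas the endothelial markers Pecam1, Cdh5 and Kdr, the leukocyte marker Ptprc and all 4 measured acinar markers lay below. An array of each clone, vector replicate 2 and Meg3 replicate 1, differed more from the rest than the rest did among themselves. Around each gene's median over the 6 arrays, all genes had an SD of 0.39 on vector replicate 2 and 0.27 on Meg3 replicate 1, against 0.16 to 0.19 on the remaining 4. The main results are therefore given with and without both.

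Transcription of these genes is known to depend in part on factors that bind short motifs just before their start sites: NRF1, the ETS factor GABP, YY1 and the oestrogen-related receptors. RefSeq promoter entries of the assembly GRCm38.p6, each covering 250 bases before to 50 after a start site, were matched for 73 of the 89 genes. On either strand, 10 of the 73 (13.7%) held CGCATGCG, the centre of the NRF1 motif, against 2.07% of the 27025 genes with an entry: Atp5g2, Atp5j, Atp5k, Atp5l, Cox6a1, Ndufa8, Ndufa11, Ndufaf4, Uqcr and Uqcrc1. The ETS motif CCGGAAG was found for 17 of 73 (23.3%), against 9.93%, AAGATGGCG of YY1 for 8 of 73 (11.0%), against 1.64%, and TCAAGGTCA of the oestrogen-related receptors for 2 of 73 (2.74%), against 0.466%. Of the 10 genes with the NRF1 letters, 5 held the ETS letters too (Atp5j, Atp5k, Atp5l, Cox6a1 and Uqcr). These are matches of letters, not measured binding. The promoters of the set were also richer in G and C, with a median GC content of 58.3% beside 52.7% for the background. The background was matched neither for GC content nor for level, and the part of either in these shares was not tested. The 250 bases before the start are shown for 4 of the genes with an NRF1 match, the matched letters in capitals; they were chosen after the values were seen, Cox6a1 and Atp5k because they hold both motifs, and Ndufa11 and Ndufaf4 because they share the NRF1 letters and read in opposite directions on single arrays.
Atp5k (chr5:108434400-108434649, minus strand): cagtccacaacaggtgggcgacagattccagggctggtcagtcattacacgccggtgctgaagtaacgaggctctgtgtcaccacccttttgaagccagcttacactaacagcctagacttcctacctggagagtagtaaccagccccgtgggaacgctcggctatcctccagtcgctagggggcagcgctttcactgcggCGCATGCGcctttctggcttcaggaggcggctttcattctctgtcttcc
Cox6a1 (chr5:115348959-115349208, minus strand): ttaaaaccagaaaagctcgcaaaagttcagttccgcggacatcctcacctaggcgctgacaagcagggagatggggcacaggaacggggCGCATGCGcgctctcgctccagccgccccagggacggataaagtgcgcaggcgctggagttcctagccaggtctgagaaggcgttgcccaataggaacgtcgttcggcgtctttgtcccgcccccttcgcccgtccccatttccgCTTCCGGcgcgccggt
Ndufa11 (chr17:56717512-56717761, plus strand): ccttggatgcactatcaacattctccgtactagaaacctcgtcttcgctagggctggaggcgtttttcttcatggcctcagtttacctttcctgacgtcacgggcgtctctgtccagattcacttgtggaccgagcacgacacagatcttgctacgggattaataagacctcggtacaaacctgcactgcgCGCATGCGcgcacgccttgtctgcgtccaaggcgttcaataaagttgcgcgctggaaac
Ndufaf4 (chr4:24897833-24898082, plus strand): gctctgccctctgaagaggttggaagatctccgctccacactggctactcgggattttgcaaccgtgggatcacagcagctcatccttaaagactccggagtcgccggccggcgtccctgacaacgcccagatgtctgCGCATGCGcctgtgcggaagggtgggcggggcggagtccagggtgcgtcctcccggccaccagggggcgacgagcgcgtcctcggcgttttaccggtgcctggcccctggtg
In these stretches the NRF1 match began 49 bases before the start of Atp5k, 161 before that of Cox6a1, 59 before that of Ndufa11 and 112 before that of Ndufaf4. The ETS match shown for Cox6a1, on the other strand, began 16 bases before its start. That of Atp5k does not lie wholly within the bases shown.

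No gene of the 89 was called different between the clones. With 6 arrays, 0 were called higher and 0 lower by limma (Benjamini-Hochberg adjusted p under 0.05 over all genes), where 0.666% of all genes were called, and the lowest adjusted p was 0.263, that of Atp5j. Before adjustment, 7 had p under 0.05 by limma (7.87% of the 89). The share was 6.96% of all genes and 9.63% of genes above the median level, where 84 of the 89 lie. Of the 7 genes, 4 were higher (Cox6a2, Ndufb5, Cox7a2l and Sdhb), as were 2.68% of all genes. The other 3 were lower (Atp5j, Cox7a1 and Uqcrb), as were 4.28% of all genes. Among the 10533 genes above the median level, 349 were higher and 665 lower at that p. Of the 490 probe sets of the 89 genes, tested singly, 0 were called by limma and 12 had an unadjusted p under 0.05. Among all probe sets, 0.000828% were called. The median log2 difference, Meg3 minus vector, was 0.09, beside 0.01 for all genes, and 62 of 89 differences were positive (69.7%), beside 51.6% of all genes and 48.8% of genes above the median level. Leaving out vector replicate 2 alone moved the median of the 89 to 0.03. In 13 of the 89 the clones' values stood fully apart. The Meg3 cultures all read higher for 10 (11.2%, where 6.41% of all genes did) and lower for 3 (3.37%, where 6.39% did).

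The size of difference that these arrays leave possible can be read from the intervals. For 84 of the 89 genes the 95% interval of the log2 difference (limma, not adjusted) lay between -1 and 1, that is within 2-fold in either direction, and so did 95.9% of all genes' intervals. The exceptions were Atp5d (-1.46 to 1.38), Ndufa11 (-0.60 to 1.35), Cox4i1 (-0.83 to 1.02), Cox6a2 (0.20 to 1.12) and Cox4nb (-0.43 to 1.07). The SE of the difference ran from 0.11 to 0.62 with a median of 0.17, beside 0.15 for all genes. By complex, the median difference was 0.12 for complex I, 0.05 for II, 0.04 for III, 0.05 for IV and 0.07 for V. Without vector replicate 2 and Meg3 replicate 1 the medians were 0.07, -0.03, -0.07, 0.06 and -0.03, so the direction of complexes II, III and V turned with these arrays. The complex II median was also below 0 without vector replicate 2 alone (-0.14) and without Meg3 replicate 2 (-0.06).

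**Figure D1:**
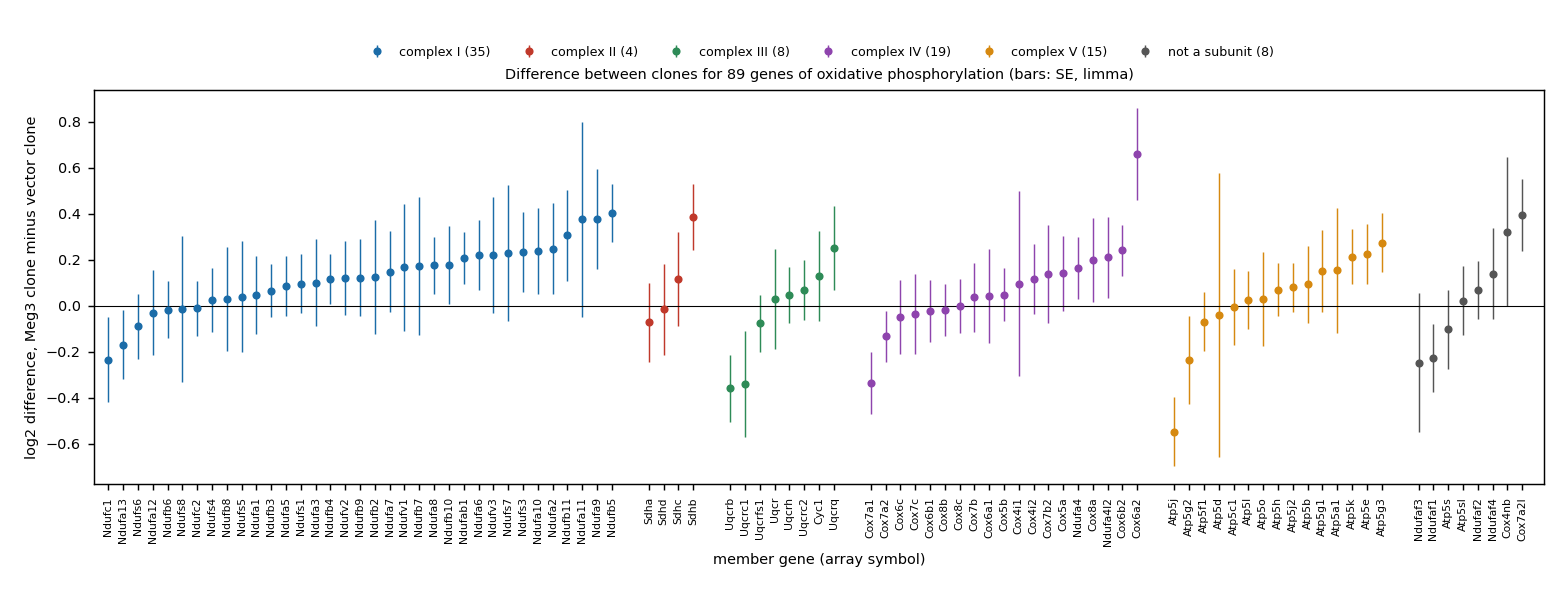
Log2 difference between the Meg3 and vector clones (vertical axis) for each of the 89 genes (horizontal axis), ordered by size within complexes I to V and, at the right, the 8 genes that encode no subunit; points are differences over 3 cultures each and bars are 1 SE from limma. Cox6a2 is the highest at 0.66 and Atp5j the lowest at -0.55, and the longest bars belong to Atp5d, Ndufa11 and Cox4i1.

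Complex I, which oxidises NADH, had 28 positive and 7 negative differences among its 35 subunits. That is 80% positive, beside 51.6% of all genes and 48.8% of genes above the median level. Without vector replicate 2 and Meg3 replicate 1, 24 were positive (68.6%, beside 54.7% and 41.0%). The median of complex I stayed above 0 in all alternatives that were run, from 0.03 to 0.23 with 1 array left out. Its core subunits carry the flavin and the iron-sulphur clusters; 6 of them are described here. Ndufv1, the flavin subunit that takes electrons from NADH, read 9.12, 8.14 and 9.03 in the vector cultures and 8.61, 9.27 and 8.93 in the Meg3 cultures. The groups overlapped, with the lowest value in vector replicate 2 and the next lowest in Meg3 replicate 1 (difference 0.17, SE 0.28). Ndufs7, an iron-sulphur subunit near the ubiquinone site, had the same 2 arrays lowest, at 7.46 and 8.11 against 8.50 to 8.63 on the other 4 (0.23, SE 0.30). Ndufs8, also an iron-sulphur subunit, read 7.74 and 7.83 on them and 8.53 to 8.86 elsewhere (-0.01, SE 0.32). Without these arrays the differences were 0.02 for Ndufv1, 0.02 for Ndufs7 and -0.07 for Ndufs8.

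The remaining core subunits were steadier. Ndufs1, the largest subunit, with 20 probe sets, ran from 9.66 to 9.98 over the 6 arrays (0.10, SE 0.13). Ndufs3 differed by 0.23 (SE 0.17) and Ndufv2 by 0.12 (SE 0.16). Without vector replicate 2 and Meg3 replicate 1, Ndufs1, Ndufs3 and Ndufv2 differed by 0.13, 0.15 and 0.13. For Ndufs1 and Ndufv2, vector replicate 2 read higher than the other vector cultures, by 0.25 and 0.38. It read lower by 0.52 for Ndufs3, and by 0.93, 1.09 and 0.95 for Ndufv1, Ndufs7 and Ndufs8. Core subunits of 1 complex thus moved in opposite directions on the same array.

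Among the 29 accessory subunits of complex I, which surround the core and help assemble it, Ndufb5 of the membrane arm had the largest difference. It read 8.73, 8.78 and 9.03 in the vector cultures and 9.34, 9.20 and 9.20 in the Meg3 cultures. Each Meg3 culture exceeded each vector culture, and all 8 probe sets were higher, by 0.13 to 0.67 (gene difference 0.40, SE 0.13; limma adjusted p = 0.391; 95% interval 0.11 to 0.70). Without the arrays that stood apart the difference was 0.32 (SE 0.12; adjusted p = 0.162). Ndufa9, which lies by the ubiquinone pocket, differed by 0.38 (SE 0.22), and Ndufa11, a membrane subunit, by 0.37 (SE 0.42), 0.11 without both arrays. The groups did not overlap for Ndufb4 (0.12, SE 0.11) and Ndufab1, the mitochondrial acyl carrier protein, both with the Meg3 cultures above; Ndufab1 was chosen after its values were seen and differed by 0.21 (SE 0.11). The lowest differences were those of Ndufc1 (-0.24, SE 0.18), Ndufa13 (-0.17, SE 0.15) and Ndufs6 (-0.09, SE 0.14). All 6 probe sets of Ndufc1 were lower.

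Complex II, succinate dehydrogenase, links the citric acid cycle to the chain and has 4 subunits, all of nuclear origin. Sdhb, the iron-sulphur subunit, read 8.79, 8.50 and 8.76 in the vector cultures and 8.86, 9.23 and 9.11 in the Meg3 cultures. The groups did not overlap, though the gap between Meg3 replicate 1 and vector replicate 1 was small, and 7 of its 9 probe sets were higher (difference 0.39, SE 0.14; limma adjusted p = 0.571). The other subunits stood closer to 0: Sdha, the flavin subunit, at -0.07 (SE 0.17), and the membrane anchors Sdhc at 0.12 (SE 0.20) and Sdhd at -0.02 (SE 0.20). For all 4 genes both arrays that stood apart read below the others of their clone, by 0.27 to 0.58 for vector replicate 2 and by 0.19 to 0.47 for Meg3 replicate 1. Without those arrays Sdhb differed by 0.40 (SE 0.10) and was called higher (limma adjusted p = 0.0460), whereas Sdha, Sdhc and Sdhd (-0.19, 0.08 and -0.14) were not.

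In complex III, the cytochrome bc1 complex, Uqcrb, a small subunit at the ubiquinone side, read 12.94, 12.90 and 12.73 in the vector cultures and 12.75, 12.45 and 12.31 in the Meg3 cultures. Meg3 replicate 1 lay just above vector replicate 3, so the groups overlapped by that pair alone (difference -0.36, SE 0.15; adjusted p = 0.653). This value rests on 1 probe set. A further 5 probe sets are annotated to Uqcrb together with the predicted gene Gm5457, and all 5 read lower as well, with differences from -0.29 to -0.10 and 0 called. Uqcrc1, a core protein of the matrix side, had all 15 probe sets lower but a wide spread: 8.82, 8.15 and 8.44 against 7.70, 8.42 and 8.25 (-0.34, SE 0.23). The other core protein, Uqcrc2, differed by 0.07 (SE 0.13), with 11 of 17 probe sets higher.

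The electron-carrying subunits of complex III showed small differences. Uqcrfs1, the Rieske iron-sulphur protein, differed by -0.08 (SE 0.12) and Cyc1, cytochrome c1, by 0.13 (SE 0.19). The small subunit gene Uqcrq stood highest at 0.25 (SE 0.18). The complex III median was below 0 in several settings: -0.11 without vector replicate 2, -0.02 without Meg3 replicate 2 and -0.05 with the median probe set of each gene, so it has no settled direction.

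Complex IV, cytochrome c oxidase, is the complex in which several nuclear subunits exist as a common form and a form known from particular tissues, so both kinds were examined. Cox6a2, the form of subunit 6A known from heart and skeletal muscle, had the largest positive difference of the 89 genes. It read 8.89, 8.44 and 9.00 in the vector cultures and 9.09, 9.59 and 9.62 in the Meg3 cultures. Every Meg3 culture lay above every vector culture, and all 4 probe sets were higher, by 0.38 to 0.90 (gene difference 0.66, SE 0.20; limma adjusted p = 0.351). Vector replicate 2 and Meg3 replicate 1 were each the lowest of their clone, by 0.51 and 0.52 against the others. Without both the difference was 0.66 (SE 0.10) and Cox6a2 was called higher (limma adjusted p = 0.00454). The common form, Cox6a1, differed by 0.04 (SE 0.20), and by -0.08 without both arrays.

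Cox7a1, the form of subunit 7A known from heart and muscle, read lower in the Meg3 clone: 7.90, 7.60 and 7.65 against 7.27, 7.52 and 7.34. The groups did not overlap and all 4 probe sets were lower, from -0.49 to -0.17 (gene difference -0.34, SE 0.13; limma adjusted p = 0.632; -0.34 and 0.144 without both arrays). Its common partner Cox7a2 also read lower in every Meg3 culture, by a smaller amount (-0.13, SE 0.11), although 1 of its 7 probe sets was higher, by 0.76. Cox7a2l, a related protein that joins complexes III and IV in supercomplexes, went the other way, from 9.91, 9.48 and 9.99 to 10.13, 10.29 and 10.14 (0.39, SE 0.16; adjusted p = 0.634), with all 3 probe sets higher. Members of the 7A family thus stood on both sides of 0, none of them called.

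Most of the remaining forms known from particular tissues read low. Cox6b2 and Cox8c, known from testis, and Cox7b2, Cox8b and Ndufa4l2, a paralogue of Ndufa4 that hypoxia is known to induce, stayed under 6.66, the median of all genes, in the mean of either clone, and their differences were 0.24, -0.00, 0.14, -0.02 and 0.21, with SEs of 0.11 to 0.21. Cox6b2 was the 1 of them whose groups did not overlap, 5.64, 5.70 and 5.61 against 5.88, 5.99 and 5.80. Of its 7 probe sets, 6 were higher and 1 lower, and their differences ran widely, from -0.25 to 1.07. Cox4i2, a form of subunit 4 known from lung, stood near that median and differed by 0.12 (SE 0.15). Its level is a mean over 7 unlike probe sets, 1 running from 11.28 to 12.12 and the rest from 4.39 to 7.15. The common subunits showed Cox6b1 at -0.02 (SE 0.13), Cox7b at 0.04 (SE 0.15), Cox8a at 0.20 (SE 0.18), Cox6c at -0.05 (SE 0.16), Cox5a at 0.14 (SE 0.16) and Cox5b at 0.05 (SE 0.12). Ndufa4, long counted with complex I and now known as a subunit of complex IV, differed by 0.16 (SE 0.13), and all 5 of its probe sets were higher.

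Cox4i1, the common form of subunit 4, needed for assembly of the complex, varied widely between cultures; of the 89 genes only Atp5d and Ndufa11 varied more. It read 11.54, 9.81 and 11.01 in the vector cultures and 10.49, 11.25 and 10.92 in the Meg3 cultures. Vector replicate 2 was 1.46 below the mean of the other vector cultures, with all 4 probe sets low, and the difference between clones of 0.10 (SE 0.40) was small beside this. Without both arrays it was -0.19 (SE 0.17), in the opposite direction.

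**Figure D2:**
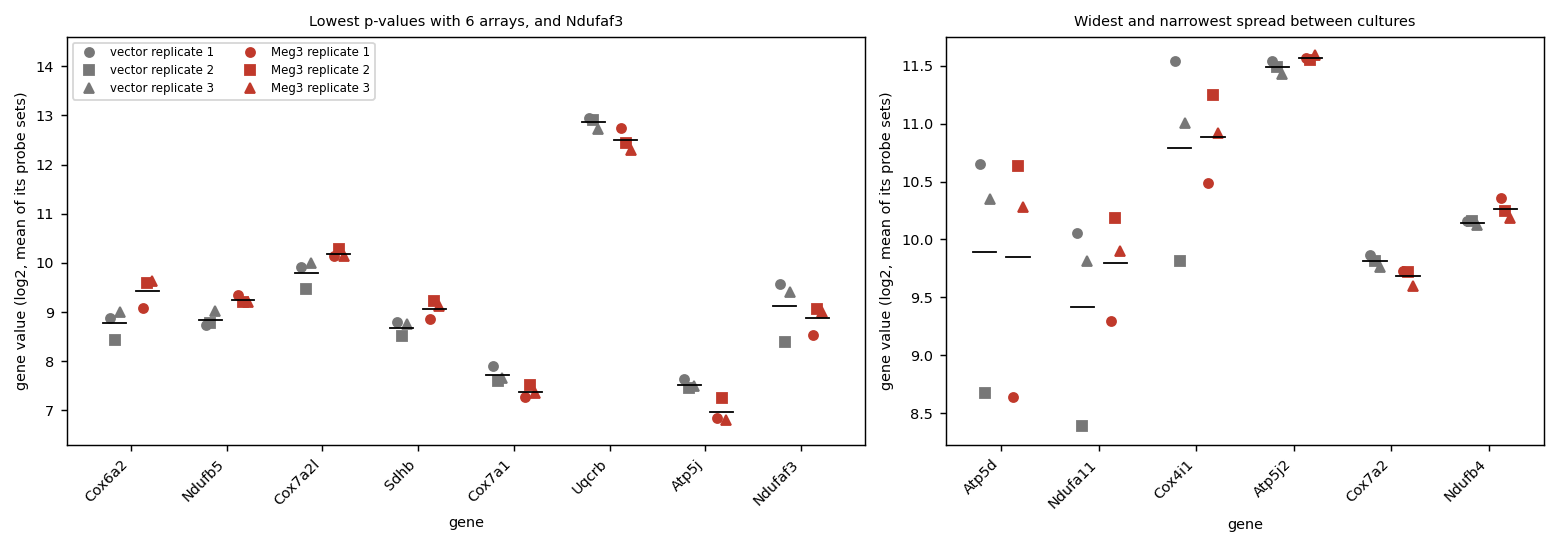
Log2 value of each gene on each array (vertical axis) for the 7 genes with an unadjusted p under 0.05 and Ndufaf3 (left), and for the 3 genes with the widest and the 3 with the narrowest spread between cultures (right); grey marks are vector cultures, red marks Meg3 cultures, shapes give the replicate and lines the means. Cox6a2 read 8.44 to 9.00 in the vector cultures and 9.09 to 9.62 in the Meg3 cultures, while Atp5d stood at 8.68 on vector replicate 2 and 8.64 on Meg3 replicate 1 and at 10.28 or more elsewhere.

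Complex V, the ATP synthase, had the gene with the lowest difference. Atp5j, coupling factor 6 of the stalk, read 7.63, 7.45 and 7.49 in the vector cultures and 6.85, 7.26 and 6.81 in the Meg3 cultures. The groups did not overlap (difference -0.55, SE 0.15; limma adjusted p = 0.263; -0.52 and 0.0693 without both arrays). It too rests on 1 probe set. The 3 probe sets that the annotation shares between Atp5j and another gene (LOC654426 for a pair of them, Gabpa for the third) differed by only -0.15 to -0.12, with 0 called, so the probe sets do not give a single size.

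The rotary and catalytic parts of the enzyme showed small differences. Atp5a1 and Atp5b, the alpha and beta subunits of the catalytic head, differed by 0.15 (SE 0.27) and 0.09 (SE 0.17), and the central stalk genes Atp5c1 and Atp5e by -0.01 (SE 0.17) and 0.22 (SE 0.13). Without the arrays that stood apart, Atp5a1 and Atp5b differed by -0.03 and -0.09, and Atp5c1 and Atp5e by 0.01 and 0.15. Atp5o, the stator subunit that confers oligomycin sensitivity, differed by 0.03 (SE 0.21), and Atp5f1, the stator b subunit, by -0.07 (SE 0.13). Atp5g1, Atp5g2 and Atp5g3 encode the same c-ring protein behind different import signals. Atp5g1 differed by 0.15 (SE 0.18), Atp5g2 by -0.24 (SE 0.19) and Atp5g3 by 0.27 (SE 0.13), none of them called. The 2 probe sets of Atp5g1 disagreed, at 0.54 for the dimmer and -0.23 for the brighter, so its direction is unsettled. Of the 4 probe sets that Atp5g1 shares with another gene, 3 read lower. For Atp5g3 all Meg3 cultures (12.21, 12.23 and 12.19) lay above all vector cultures (11.95, 11.75 and 12.11), and all 4 probe sets were higher. For Atp5g2 all 7 probe sets were lower, a pair of them with identical values on every array, so that 6 measurements are distinct, and the groups overlapped. Atp5k and Atp5j2, subunits of the membrane part, also had all Meg3 cultures above, by 0.21 (SE 0.12) and 0.08 (SE 0.11).

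Atp5d, the delta subunit of the central stalk, had the widest spread of the 89 genes. It read 10.65, 8.68 and 10.35 in the vector cultures and 8.64, 10.63 and 10.28 in the Meg3 cultures. Set against the others of their clone, vector replicate 2 stood at -1.82 and Meg3 replicate 1 at -1.81, with all 5 probe sets low on both, while the remaining 4 arrays ran from 10.28 to 10.65. The difference between clones was -0.04 (SE 0.62), and -0.05 (SE 0.14) without both arrays. At the other end were the SDs between cultures, pooled over the clones, of Atp5j2 (0.04), Cox7a2 (0.06) and Ndufb4 (0.06). Those of Atp5d, Ndufa11 and Cox4i1 were 1.06, 0.71 and 0.68. The median SD over the 89 was 0.23, beside 0.18 for all genes and 0.20 for genes above the median level.

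The spread within clones followed a shared pattern. Vector replicate 2 read lower than the other vector cultures for 53 of 89 genes (median -0.21, from -1.82 to 0.63). Meg3 replicate 1 read lower than the other Meg3 cultures for 45 (median -0.00, from -1.81 to 0.54). Among the 10533 genes above the median level these counts were 6629 (median -0.18) and 5923 (median -0.06). Over all 20416 genes they were 8684 (median 0.08) and 9659 (median 0.02). The same genes of the 89 tended to be low or high on both arrays: 42 were low on both, 33 high on both, and 14 differed in sign. This gave the same sign for 84.3% of the 89, beside 71.4% of all genes and 78.3% of genes above the median level. Over the 89 genes the deviations on these arrays had a Pearson r of 0.83, beside 0.65 over all genes and 0.76 over those above the median level; these are correlations across genes, which are not independent replicates, and each pair of values comes from the same pair of arrays. On vector replicate 2, 31 of the 89 (34.8%) were low by more than 0.5, beside 27.5% of genes above the median level, so the pattern was not limited to these genes.

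Ndufa11 and Ndufaf4, whose promoters are shown above, lay at opposite ends. Ndufa11 read 10.05, 8.39 and 9.82 in the vector cultures and 9.29, 10.19 and 9.90 in the Meg3 cultures, lowest on the arrays that stood apart, with all 5 probe sets low on both. Ndufaf4, a complex I assembly factor chosen after its values were seen, read 10.01, 10.68 and 10.08 and then 10.60, 10.35 and 10.24, highest on those arrays, with all 3 probe sets high on both. Cox5a was also high on vector replicate 2 (by 0.51), while the neighbouring subunit Cox4i1 was low. By complex, the median deviation of vector replicate 2 was -0.37 for I, -0.55 for II, -0.37 for III, 0.07 for IV and -0.15 for V. Between promoter GC content and the deviation on vector replicate 2, r was 0.07 over 73 genes of the set, 0.26 over 32 of complex I and -0.26 over 15809 of all genes. The part of GC content in the pattern was not tested.

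**Figure D3:**
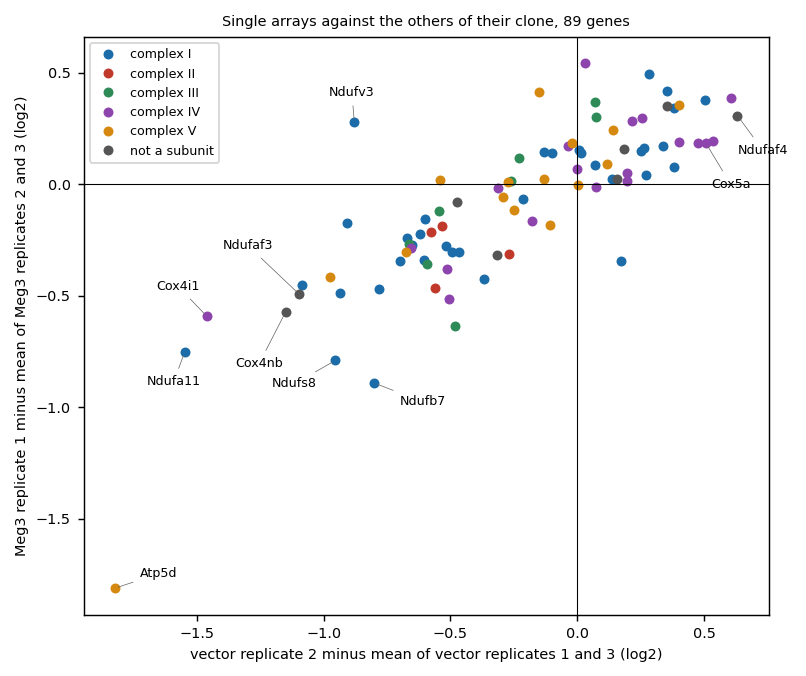
Each of the 89 genes placed by its log2 deviation on vector replicate 2 from the mean of the other vector cultures (horizontal axis) and on Meg3 replicate 1 from the mean of the other Meg3 cultures (vertical axis), coloured by complex. Points lie along the diagonal (r = 0.83 across genes): Atp5d is lowest on both (-1.82 and -1.81), Ndufa11 and Cox4i1 are low on both, and Ndufaf4 and Cox5a are high on both.

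With the 4 remaining arrays, a choice known from earlier work on these data, 4 of the 89 genes were called: Cox6a2 and Sdhb higher, and Uqcrb and the assembly factor gene Ndufaf3 lower. That is 4.49% of the 89, where this setting called 5.44% of all genes (1.43% higher and 4.01% lower). Among the 10533 genes above the median level it called 194 higher and 673 lower. Ndufaf3, which works early in complex I assembly, read 9.56, 8.38 and 9.40 in the vector cultures and 8.54, 9.06 and 9.01 in the Meg3 cultures. With 6 arrays its groups overlapped (-0.25, SE 0.30; 95% interval -0.95 to 0.45), and with 4 it fell by 0.45 (SE 0.10; limma adjusted p = 0.0326). Uqcrb fell by 0.46 (SE 0.11; limma adjusted p = 0.0442). The median over the 89 genes was then 0.03, beside 0.02 for all genes, and 52 of 89 differences were positive (58.4%), beside 54.7% of all genes and 41.0% of genes above the median level, where 84 of the 89 lie. The same cultures also entered the comparison with 6 arrays, so these calls are no independent evidence. Moreover, vector replicate 2 and Meg3 replicate 1 were left out because their own values deviated. Such a choice narrows the spread within clones and so lowers p-values, here and wherever a call with 4 arrays is given. With 6 arrays, 0.666% of all genes were called.

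**Figure D4:**
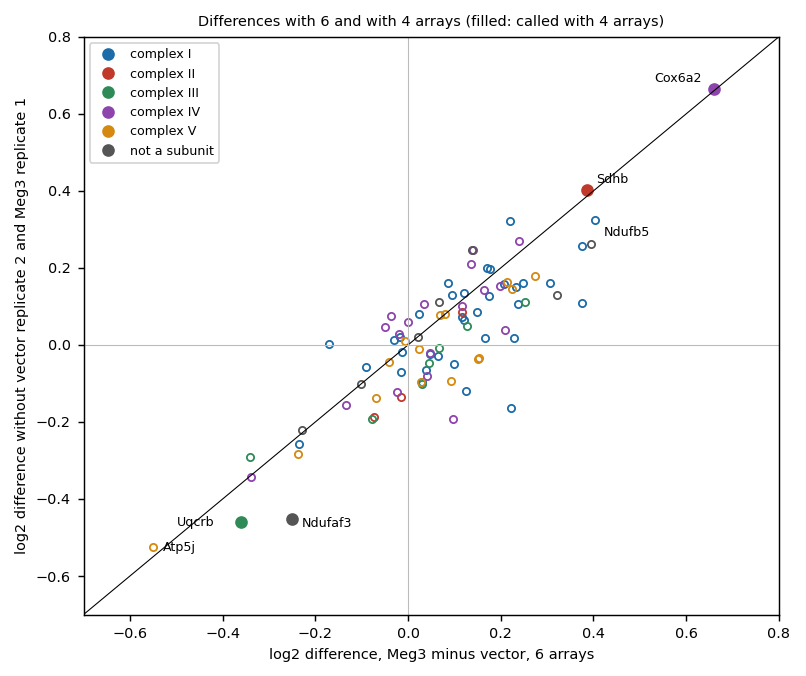
Log2 difference, Meg3 minus vector, of the 89 genes with all 6 arrays (horizontal axis) and without vector replicate 2 and Meg3 replicate 1 (vertical axis), with the line of equal values; colours give the complex, and filled points are genes called with 4 arrays. Cox6a2 (0.66 in both) and Sdhb (0.39 and 0.40) lie on the line, while Ndufaf3 (-0.25 and -0.45) lies below it.

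Genes that serve the same pathway without being subunits under this symbol rule were examined through lists. Of 30 measured assembly factors of complexes II to V, 0 were called by limma and 20 differences were positive (median 0.05); Cox17, a copper chaperone for complex IV, differed by 0.02 (SE 0.15) and Fam36a, now named Cox20, by 0.01 (SE 0.21). Of 8 assembly factors of complex I without a Nduf symbol, 0 were called by limma (median 0.02, 0 at an unadjusted p under 0.05), with Tmem126b at -0.22 (SE 0.25) and Lyrm2 at -0.14 (SE 0.16). Genes of the citric acid cycle and pyruvate entry had 0 of 20 called by limma and 15 positive differences (median 0.14); Mdh2, malate dehydrogenase, differed by 0.23 (SE 0.32) and Idh3g by 0.22 (SE 0.20). The largest difference of the list was negative, that of Pdhb, a subunit of pyruvate dehydrogenase (-0.38, SE 0.13, limma adjusted p = 0.501). In every Meg3 culture, 2 of the 20 genes read lower, Pdhb and Sucla2 (-0.29, SE 0.14), where 6.39% of all genes did. Fh1 was the 1 gene that read higher in every Meg3 culture (0.20, SE 0.13), where 6.41% of all genes did. Pdhb, Sucla2 and Fh1 were chosen after their values were seen. The list's median was 0.04 without the arrays that stood apart, and vector replicate 2 read lower for the list by a median of 0.35.

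Electron carriers, enzymes that feed the chain and partners of the ATP synthase had 0 of 28 called by limma (median 0.03; lowest adjusted p 0.117). Slc25a4, an ADP/ATP carrier, differed by 0.03 (SE 0.12), and 2010107E04Rik, a small ATP synthase subunit under an older name, by -0.07 (SE 0.14). The lowest adjusted p belonged to Sqrdl, sulphide quinone reductase, chosen after its values were seen. It read 7.49, 7.08 and 7.74 in the vector cultures and 6.51, 6.71 and 6.58 in the Meg3 cultures, with no overlap (difference -0.84, SE 0.18; limma adjusted p = 0.117). Without both arrays it was called lower (log2 difference -0.97, SE 0.11, limma adjusted p = 0.00129), as was Ucp2, an uncoupling protein homologue of beta cells, chosen likewise (-0.56, SE 0.11, limma adjusted p = 0.0199). With 6 arrays, 3 of the 28 genes read higher in every Meg3 culture, where 6.41% of all genes did: Coq4 (0.22), Coq7 (0.36) and Pdss2 (0.20). Sqrdl and Coq3 (-0.30) were the 2 that read lower in every Meg3 culture, where 6.39% did.

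Regulators of mitochondrial biogenesis and of mitochondrial DNA expression had 0 of 20 called by limma (median -0.00). Ssbp1, which binds single-stranded mitochondrial DNA, differed by 0.13 (SE 0.16) and Gabpa, a subunit of GABP, by 0.01 (SE 0.12). The gene of NRF1, chosen after its values were seen, differed by -0.18 (SE 0.14) and Ppargc1a, chosen likewise, by -0.00 (SE 0.15). Esrrg, an oestrogen-related receptor, also chosen after its values were seen, read 8.61, 8.29 and 8.83 in the vector cultures and 9.01, 9.24 and 9.21 in the Meg3 cultures. Its groups did not overlap (difference 0.58, SE 0.16, limma adjusted p = 0.270), and it was called higher without both arrays (0.51, SE 0.11, limma adjusted p = 0.0251). Tfb1m (0.37, SE 0.13) and Tfam (0.22, SE 0.14), chosen likewise, also read higher in every Meg3 culture. That makes 3 genes of the list, where 6.41% of all genes did, and 0 read lower in every Meg3 culture, where 6.39% did.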

How the data were processed

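RNA was measured on 6 Affymetrix arrays, 3 per clone. The values that the authors deposited are log2 signals of single probe sets; the submitters' processing notes name RMA and Partek. Their versions, and any build, are not given in the sources. The table holds 241419 probe sets, with array medians from 7.02 to 7.19. Of these, 212097 had 1 symbol, 4475 several and 24847 none; those with 1 symbol were averaged (mean log2 per array) into 20416 genes. Symbols were matched to the gene table of GRCm38.p6, where all 89 genes of the set were found, 5 under a newer name (Atp5f1, Atp5s, Atp5sl, Cox4nb and Uqcr); the array's symbols are kept. A further 26 probe sets name a gene of the set beside another gene and were left out.

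The Meg3 and vector groups entered limma 3.58.1 (lmFit, eBayes; R 4.3.3) with no covariate and no filter; p-values were two-sided, Benjamini-Hochberg adjusted over all 20416 genes, and called under 0.05. Errors of differences are moderated standard errors. Levels were set only against the median of all genes, as a rough guide, since probes differ in brightness. Exact permutation tests of 3 against 3 arrays cannot go below 0.1. The limma step was tested on simulated data. Their noise was drawn independently for each gene and array, so they held no arrays that stand apart as these do. The number of arrays limits the precision. The genes, lists, rules and alternatives were chosen with earlier results of these data known. Named were genes called; the 3 highest and 3 lowest differences of each complex among genes above the median level; core subunits; pairs of common and tissue forms; the 3 widest and 3 narrowest spreads; up to 4 genes of each list; and Meg3. Others are said to be chosen after seeing values, or are named because a count of few genes holds them. Alternatives were a replicate block, centring, quantile normalization, a filter on the dimmest 30% of genes, the brightest or median probe set, eBayes with trend and robust estimation, each array left out, and both outlying arrays left out.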

Additional observations from a re-analysis of the deposited data

How the results depend on the processing

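The count of 0 genes called among the 89 stayed at 0 under centring, quantile normalization applied again, the brightest and the median probe set, eBayes with trend and robust estimation, the filter on dim genes (88 of the 89 remained; Cox8c did not), subunits alone and each array left out; it was 4 without vector replicate 2 and Meg3 replicate 1. The median difference of the 89 genes was 0.09 and ran from 0.03 to 0.13 with 1 array left out at a time, lowest without vector replicate 2. The SD of the 89 genes' median between arrays was 0.08. It includes vector replicate 2, so it cannot serve to judge the move that leaving out this array made. Of all genes, 136 were called, against 40 with the brightest and 58 with the median probe set, 1111 without both arrays, and 22 to 349 with 1 array left out, from without Meg3 replicate 3 to without vector replicate 2. The list of electron carriers and partners had 1 gene called under quantile normalization, 1 with the median probe set, 0 to 1 with 1 array left out and 2 without both arrays; the regulators had 1 without both arrays. Of the 490 probe sets tested singly, 0 were called by limma (12 at an unadjusted p under 0.05) with all arrays, with 1 left out and without both. Meg3 missed the threshold with the brightest probe set (adjusted p = 0.241), the median probe set (0.0629) and without Meg3 replicate 3 (0.0666). With the replicate number as a block, 0 of the 89 genes and 30 of all genes were called. Deviations of same-numbered arrays from their clone's mean correlated at -0.61, -0.63 and 0.28 over genes. Those of vector replicate 2 and Meg3 replicate 1 correlated at 0.65. As these outlying arrays also enter both clones' means, the values cannot show whether the numbers pair the arrays. What else distinguishes the clones cannot be told apart from Meg3.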

Other observations

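The 26 probe sets that the annotation shares between a gene of oxidative phosphorylation and another gene, used in no comparison above, covered 11 of these genes. Tested singly, 0 were called by limma and 0 passed an unadjusted p of 0.05. Their median log2 difference was -0.08, with 19 lower and 7 higher, from -0.39 to 0.24. For Cox7c, a complex IV subunit with 1 probe set of its own (difference -0.04, SE 0.17), the 4 shared with the predicted gene Gm10012 differed by -0.11 to -0.06. For Atp5g1 the 4 shared with Gm10039 ran from -0.39 to 0.04.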
